A study of Mus musculus with 4 samples.

Results

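Translation initiation factors (eIF) and elongation factors (eEF) are the soluble proteins that load ribosomes onto messenger RNA and move them along it. They were chosen by symbol alone, as every gene whose array annotation began with Eif1 to Eif6, Eef1 or Eef2, leaving aside the 4 kinases Eif2ak1 to Eif2ak4. The rule found 39 genes of 11138 measured. In initiation, eIF2 brings the first tRNA to the small ribosomal subunit, eIF2B recharges eIF2 with GTP, eIF3 bridges the ribosome to the messenger, and the eIF4 proteins bind and unwind the capped end. In elongation, eEF1A carries each charged tRNA to the ribosome and eEF1B recharges eEF1A. Cells change the supply and activity of these factors when they grow or meet stress, and much of that control acts on the proteins rather than on their messenger RNA.

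The RNA came from cardiac endothelium, the cells that line the vessels of the heart, of mice 24 h after an intraperitoneal injection of LPS, of mice 4 h after LPS, and of mice injected with saline. LPS is an outer membrane component of Gram-negative bacteria. Amplified RNA of LPS and saline mice was hybridised together on 2-colour long oligonucleotide arrays, 2 arrays per time, with LPS in Cy5 on array 1 and in Cy3 on array 2. The labels name no strain, age or sex of the mice, no number of mice pooled and no way in which the endothelium was isolated. No separate animals or extracts were named for the reversed array, so the arrays of a time were counted as 1 replicate and the differences from saline have no replicate check.

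Every value is a log2 ratio of LPS over saline, centred so that the median gene of each array lies at 0, and ± is the SD of 2 arrays, which covers array and dye error but not the spread between mice. A gene was called higher (or lower) where each of the 2 arrays showed a ratio of 2-fold or more (1 log2 unit) in that direction. The deposited table did not state the direction of its ratios. Over all 32448 spots the 2 arrays as deposited correlated at -0.064 at 24 h and -0.056 at 4 h, too weakly to settle it. The sign of array 2 was turned as the dyes in the labels imply, so the direction is likely but not certain. Were all arrays reversed, each "higher" below would read "lower". Were the table already turned, the 2 arrays of each called gene would lie in opposite directions. Over all genes, the turned arrays of a time correlated at 0.12 at 24 h and at 0.12 at 4 h, and duplicate spots often differed. The table holds ratios alone, so neither the level of a gene nor its signal over background could be judged.

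More translation factors were called higher than lower after LPS at both times. At 24 h, 6 of 39 (15.4%) were called higher and 0 lower, where 3.48% of all genes were called higher and 3.52% lower. At 4 h, 4 of 39 (10.3%) were called higher and 0 lower, against 2.25% and 0.997% of all genes. The 8 genes called at either time were the tRNA carrier Eef1a1 and its exchange factor Eef1b2, the helicase Eif4a1, the scaffold Eif4g2, the eIF3 subunits Eif3c and Eif3f, the eIF2B subunit Eif2b2 and Eif1ad, which carries a domain like eIF1A. Both Eif2b2 and Eif3c were called at both times, 2 of 39 against 0.485% of all genes. Neither was called at 24 h with quantile or scale normalization, which left 0 of 39 called at both times, and Eif2b2 was not called at 24 h when ratios of exactly 1 were left out. The other 31 factors were called at neither time.

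**Figure D1:**
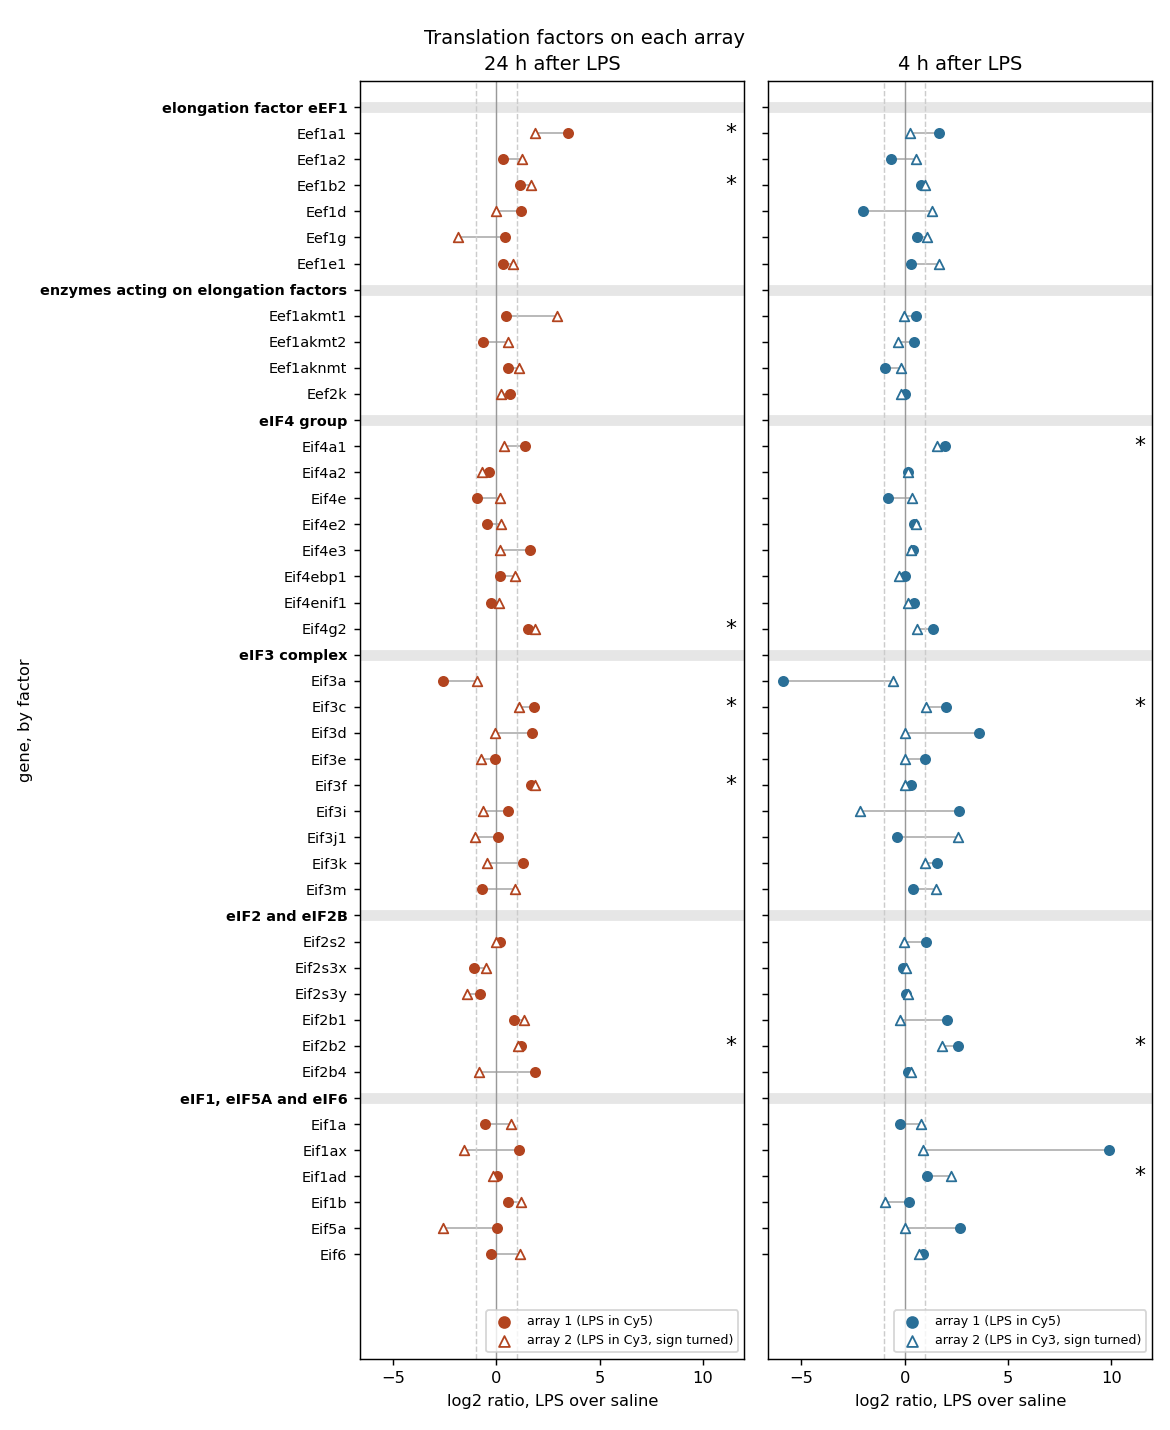
Log2 ratio of LPS over saline for the 39 translation factors, by factor, at 24 h (left) and 4 h (right). Filled circles are array 1, open triangles array 2, a grey line joins the 2 arrays of a gene, dashed lines mark 1 log2 unit, and asterisks mark the 6 genes called at 24 h and the 4 called at 4 h.

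The whole set was also described by its median. The median factor stood at 0.43 at 24 h and 0.50 at 4 h, where the median of all genes was -0.02 at both times. By array, the median factor stood at 0.43 and 0.23 at 24 h, and at 0.45 and 0.29 at 4 h. Both arrays lay above 0 for 16 of 39 factors (41.0%) at 24 h, against 26.1% of all genes, and for 21 of 39 (53.8%) at 4 h, against 24.3%. Both lay below 0 for 5 factors at 24 h and 2 at 4 h. The arrays of a time disagreed in sign for the remaining 18 factors at 24 h and 14 at 4 h.

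Opposite results of at least 2-fold on the 2 arrays give a measure of array and spot error together. At 24 h, 1 factor (Eif1ax) behaved so, against 3.69% of all genes, and at 4 h 2 factors (Eef1d and Eif3i), against 1.42%. Duplicate spots of these factors disagreed within an array. Those of Eif1ax on array 2 at 24 h were at a ratio of exactly 1 and at -3 log2 units. On array 1 at 4 h, those of Eef1d were at -0.23 and -3.84 and those of Eif3i at -0.03 and 5.23. Across the factors the 2 arrays correlated at 0.33 at 24 h and 0.09 at 4 h (39 genes that share the same hybridisations). When limma took the arrays as separate samples, no factor passed an adjusted p of 0.05. The lowest adjusted p of a factor was 0.391 at 24 h and 0.626 at 4 h, while 7 factors at 24 h, against 10.1% of all genes, and 4 at 4 h, against 4.26%, had an unadjusted p under 0.05.

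**Figure D2:**
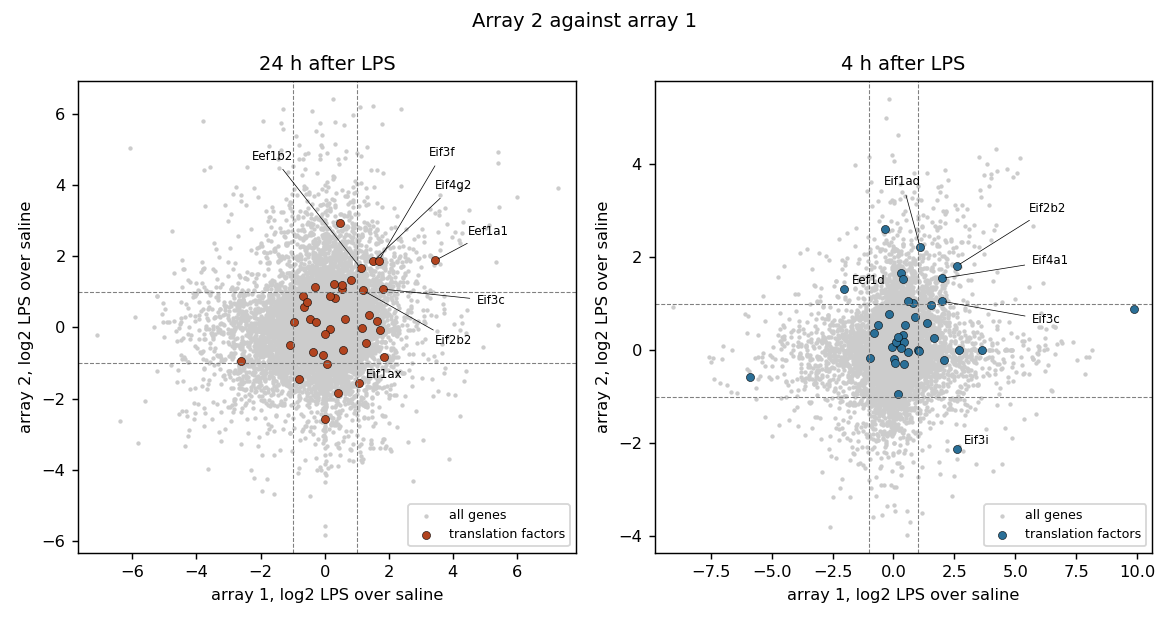
Array 2 against array 1, both as log2 LPS over saline, at 24 h (left) and 4 h (right), with all 11138 genes in grey and the 39 translation factors in colour. Translation factors in the upper right corner beyond the dashed lines at 1 log2 unit are the called ones. Eif1ax at 24 h and Eef1d and Eif3i at 4 h lie in corners of opposite sign.

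With the sign of array 2 turned, the elongation factor eEF1 held the highest mean 24 h ratio of the 39 factors. Eef1a1, the eEF1A form found in most tissues, was at 3.46 and 1.89 at 24 h, a mean of 2.67 ± 1.11 or 6.37-fold, against 1.67 and 0.26 at 4 h (0.97 ± 1.00). All of its spots were above 2-fold at 24 h, and its mean was the 56th highest of all genes. Without the turned sign its mean would be 0.785, below that of Eef1g at 1.14. Eef1a2, the form known from muscle and neurons, was at 0.30 and 1.23 at 24 h and at -0.64 and 0.55 at 4 h, so it was called at neither time. The sequences of the oligonucleotides were not used here, so the values of such close relatives (Eef1a1 and Eef1a2, Eif4a1 and Eif4a2, Eif1a and Eif1ax, Eif2s3x and Eif2s3y) are uncertain, since 1 may bind to the other's oligonucleotide.

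Of the eEF1B subunits, Eef1b2, which exchanges GDP for GTP on eEF1A, was at 1.12 and 1.67 at 24 h (1.40 ± 0.38) and at 0.78 and 1.01 at 4 h (0.90 ± 0.16). It was positive on every array, and at 4 h it lay just under the 2-fold line on array 1. The other exchange subunit, Eef1d, was at 1.18 and -0.02 at 24 h and at -2.02 and 1.31 at 4 h. The scaffold subunit Eef1g was at 0.43 and -1.85 at 24 h and at 0.60 and 1.07 at 4 h. The arrays of Eef1d disagreed in sign at both times and those of Eef1g at 24 h, so Eef1b2 alone of the 3 was on 1 side of 0 on all 4 arrays. Eef1e1, a component of the multi-tRNA synthetase complex, was positive on all arrays, at 0.31 and 0.82 at 24 h and at 0.31 and 1.67 at 4 h.

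Of the 4 enzymes that act on elongation factors, 0 were called. The shares of all genes called were 3.48% higher and 3.52% lower at 24 h, and 2.25% and 0.997% at 4 h. At such shares so few genes may well hold no call. The kinase Eef2k, which slows elongation by phosphorylating eEF2, was at 0.63 and 0.23 at 24 h and at 0.02 and -0.19 at 4 h. Of the eEF1A methyltransferases, Eef1akmt1 averaged 1.71 ± 1.75 at 24 h, but this rested on 1 spot at 5.57, and its duplicate on the same array was at 0.45. Eef1akmt2 stayed within 0.7 log2 units of 0 on every array. Eef1aknmt was at 0.55 and 1.08 at 24 h, against -0.96 and -0.16 at 4 h. The value of -0.96 averaged spots at -4.34 and 2.39.

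In the eIF4 group, 1 of 8 factors was called higher at each time, where 3.48% of all genes were called higher at 24 h and 2.25% at 4 h. Eif4a1, the helicase that unwinds the start of the messenger, was at 1.38 and 0.35 at 24 h (0.87 ± 0.73), against 1.98 and 1.55 at 4 h (1.76 ± 0.30 or 3.39-fold), where it was called. Eif4g2, a relative of the scaffold eIF4G that lacks the site for eIF4E, was at 1.51 and 1.86 at 24 h (1.68 ± 0.25 or 3.21-fold) and at 1.38 and 0.60 at 4 h (0.99 ± 0.55). Both genes were positive on all 4 arrays. The paralogue Eif4a2 was at -0.37 and -0.70 at 24 h and at 0.16 on both arrays at 4 h, so it stood below Eif4a1 on each array.

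The cap-binding side of the group showed no call. With 3.48% of all genes called higher and 3.52% lower at 24 h, so few genes may well hold none. At 4 h these shares were 2.25% and 0.997%. Eif4e, which binds the cap and limits initiation in many cells, was at -0.94 and 0.16 at 24 h and at -0.78 and 0.37 at 4 h. At each time array 1, with LPS in Cy5, lay below 0 and array 2 above it, and the part of the dyes was not tested. Eif4ebp1, the eIF4E repressor that mTOR switches off, was at 0.18 and 0.87 at 24 h and at 0.04 and -0.27 at 4 h. Its duplicate spots disagreed in sign on every array, and the value of 0.87 averaged spots at -0.12 and 2.00. The cap-binding relatives Eif4e2 and Eif4e3 averaged -0.11 ± 0.49 and 0.91 ± 1.05 at 24 h, and 0.50 ± 0.07 and 0.37 ± 0.05 at 4 h. The eIF4E transporter Eif4enif1 averaged -0.06 ± 0.28 at 24 h and 0.31 ± 0.19 at 4 h.

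The eIF3 complex, the largest initiation factor, was measured through 9 subunits. At 24 h 2 were called higher, against 3.48% of all genes, and at 4 h 1, against 2.25%. The median subunit stood at 0.10 at 24 h and 0.96 at 4 h. Eif3c, a core subunit, was at 1.82 and 1.08 at 24 h (1.45 ± 0.53) and at 1.99 and 1.06 at 4 h (1.52 ± 0.66). Its 2 times differed by only -0.07. Eif3f, which carries an MPN domain, was at 1.69 and 1.87 at 24 h (1.78 ± 0.13 or 3.43-fold), against 0.29 and 0.04 at 4 h (0.17 ± 0.18). Its array means at 24 h agreed more closely than those of any other factor called then except Eif2b2. Its duplicate spots lay further apart, at 1.31 and 2.02 on array 1 and at 2.36 and 1.52 on array 2.

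Other eIF3 subunits went different ways. Eif3a, the scaffold of the complex, had the lowest mean of the factors at both times. It was at -2.61 and -0.94 at 24 h (-1.77 ± 1.18) and at -5.87 and -0.57 at 4 h (-3.22 ± 3.75). The value of -5.87 averaged spots at -9.12 and -2.65. Eif3a was negative on every array and missed the call through array 2. Eif3k was at 1.28 and -0.44 at 24 h and at 1.55 and 0.97 at 4 h, just short of the call at 4 h. Eif3m was at -0.69 and 0.88 at 24 h, against 0.38 and 1.53 at 4 h. Eif3e was at -0.06 and -0.76 at 24 h, against 1.01 and 0.01 at 4 h. Eif3i at 2.61 and -2.13 and Eif3j1 at -0.35 and 2.60 were split between the arrays of 4 h. The array 1 value of Eif3i averaged spots at -0.03 and 5.23. For Eif3d, 5 of 8 spot values were a ratio of exactly 1 (log2 values no further than 1e-06 from 0), and it is unknown if such values are measurements. Its mean of 1.81 ± 2.56 at 4 h came from array 1 alone.

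The exchange factor eIF2B, the step that the eIF2 kinases block, was measured through Eif2b1, Eif2b2 and Eif2b4. Eif2b2, its beta subunit, was at 1.18 and 1.05 at 24 h (1.12 ± 0.10) and at 2.60 and 1.82 at 4 h (2.21 ± 0.56 or 4.62-fold). Its 4 h ratio had the lowest unadjusted limma p of any factor, 0.0031, with an adjusted p of 0.626. Eif2b1, the alpha subunit, was at 0.82 and 1.34 at 24 h, but at 2.06 and -0.22 at 4 h. Eif2b4, the delta subunit, was at 1.87 and -0.83 at 24 h and at 0.17 and 0.29 at 4 h. Only Eif2b2 of the 3 was positive on all 4 arrays.

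The eIF2 subunits gave no call, which is not a result about so few genes. Of all genes, 3.48% were called higher and 3.52% lower at 24 h, and 2.25% and 0.997% at 4 h. Eif2s2, the beta subunit, was at 0.17 and -0.04 at 24 h and at 1.03 and -0.01 at 4 h. The gamma subunit is encoded by near-identical genes on X and Y. Eif2s3x was at -1.07 and -0.49 at 24 h and at -0.08 and 0.06 at 4 h. Eif2s3y was at -0.81 and -1.45 at 24 h and at 0.08 and 0.19 at 4 h. The 24 h values of both gamma genes were below 0 on both arrays. The 2 oligonucleotides of Eif2s3y did not match at 24 h, since the spots of one lay between -0.04 and 0.36 and those of the other between -4.39 and -0.75.

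Of the small factors, Eif1ad was at 0.02 and -0.19 at 24 h, against 1.09 and 2.23 at 4 h (1.66 ± 0.81), where it was called. This call was weak, because its 4 spot values at 4 h ran from 0.01 to 4.45 and only 2 reached 1 log2 unit. Both of its spots on array 1 at 24 h were a ratio of exactly 1, so the 0.02 there is the shift from centring. Eif1ax, an eIF1A gene, had the highest mean of all 11138 genes at 4 h, 5.38 ± 6.36, but was not called. It was at 1.07 and -1.56 at 24 h, while at 4 h array 1 put it at 9.87 and array 2 at 0.88. The last value averaged a ratio of exactly 1 and a spot at 1.76. Eif1ax was called higher at 4 h when ratios of exactly 1 were left out, and with quantile or scale normalization. Eif1a, its close relative, was at -0.54 and 0.71 at 24 h and at -0.20 and 0.78 at 4 h. Eif1b, a relative of the start codon factor eIF1, was at 0.55 and 1.19 at 24 h and at 0.20 and -0.94 at 4 h. Eif5a, which helps ribosomes through difficult peptide bonds, was at 0.02 and -2.58 at 24 h and at 2.70 and 0.00 at 4 h, and 4 of its 8 spot values were a ratio of exactly 1. Eif6, which keeps the large ribosomal subunit from joining early, was at -0.29 and 1.15 at 24 h and at 0.89 and 0.71 at 4 h. Its value on array 2 at 24 h rested on 1 spot at 5.52, and the other 3 spots lay between -0.36 and -0.15. At 4 h its value on array 1 rested on 1 spot at 3.20, with the others between -0.20 and 0.36. On array 2 at 4 h 1 spot was at 1.91 and the others lay between 0.08 and 0.44.

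Single spots were then examined, since each call averages 2 spots per oligonucleotide and array. Spot values are given before centring. All 8 called genes rested on 1 oligonucleotide each. Every spot reached 2-fold in the called direction for 3 factors at 24 h (Eef1a1, Eif3f and Eif4g2), against 1.92% of all genes, and for 3 at 4 h (Eif2b2, Eif3c and Eif4a1), against 1.25%. At 24 h the lowest spot of Eef1b2 was at 0.98, that of Eif3c at 0.97 and that of Eif2b2 at 0.86, so these calls lay close to the threshold. When the arrays were scaled to 1 spread, these 3 genes were no longer called at 24 h, 1.90% of all genes were called higher, and at 4 h Eif1ax and Eif3k joined the 4 called factors, with 3.12% of all genes called higher. Over the 43 oligonucleotides of the factors, the share with duplicate spots no more than 0.5 log2 units apart was 53.5% and 44.2% on the arrays of 24 h, against 48.8% of all oligonucleotides on both. At 4 h it was 51.2% and 74.4%, against 52.5% and 66.0% of all. Between 4.65% and 10.5% of their 86 spots on an array were a ratio of exactly 1, against 10.2% to 13.4% of all spots.

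**Figure D3:**
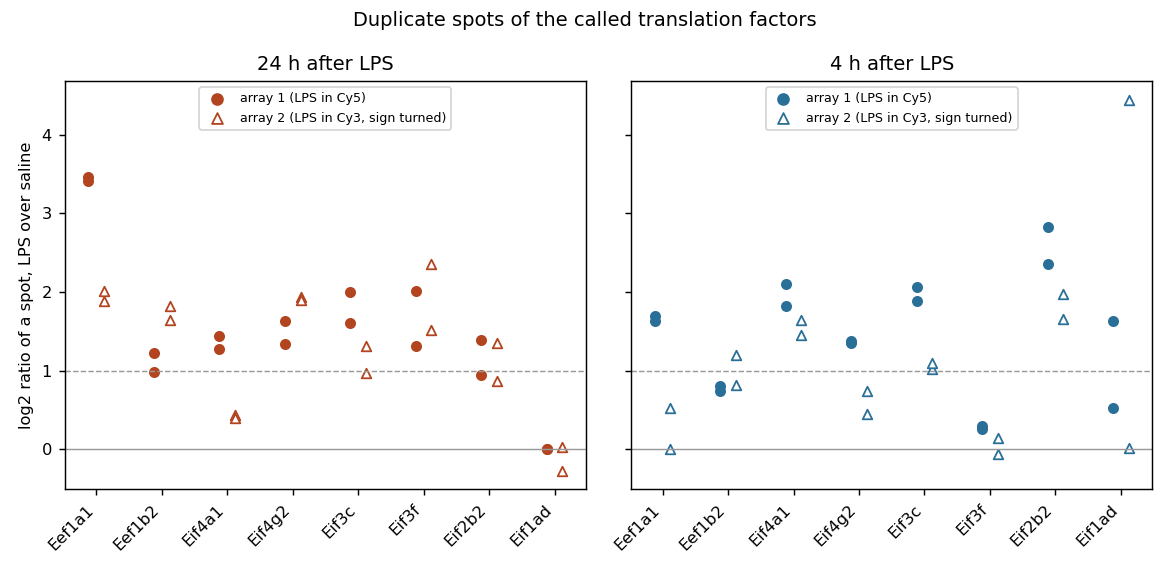
Log2 LPS over saline of each spot of the 8 called translation factors, at 24 h (left) and 4 h (right). Circles are the 2 spots on array 1 and triangles those on array 2; the dashed line marks 1 log2 unit. Eef1a1, Eif3f and Eif4g2 lie wholly above it at 24 h and Eif2b2, Eif3c and Eif4a1 at 4 h, while the spots of Eif1ad at 4 h run from 0.01 to 4.45.

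The next comparison set 24 h against 4 h. A factor was taken to differ where its means were at least 1 log2 unit apart and the arrays of the times did not overlap. By this measure 4 factors were higher at 24 h, against 9.43% of all genes, and 4 were lower, against 10.3%, so each count of 4 in 39 (10.3%) lay near the share of all genes. The factors higher at 24 h were Eef1a1 by 1.70, Eif3f by 1.61, Eef1aknmt by 1.38 and Eif1b by 1.24. Those lower at 24 h were Eif1ad by -1.74, Eef1g by -1.55, Eif2s3y by -1.26 and Eif2b2 by -1.09. The 4 h value of Eef1aknmt on array 1 averaged spots at -4.34 and 2.39. Both spots of Eif1ad on array 1 at 24 h were a ratio of exactly 1. The difference of Eif2s3y came from 1 of its 2 oligonucleotides. It was -0.61 with the median of all spots and -0.12 with the oligonucleotide whose duplicate spots were close, so the call was lost in both settings. Eef1a1 no longer differed with scale normalization, nor did Eef1g when ratios of exactly 1 were left out, a setting in which Eif1ad had too few spots for a value. In limma with the arrays as separate samples none passed an adjusted p of 0.05, the lowest of a factor being 0.804, and 2 of 39 factors (5.13%) had an unadjusted p under 0.05, against 5.73% of all genes.

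**Figure D4:**
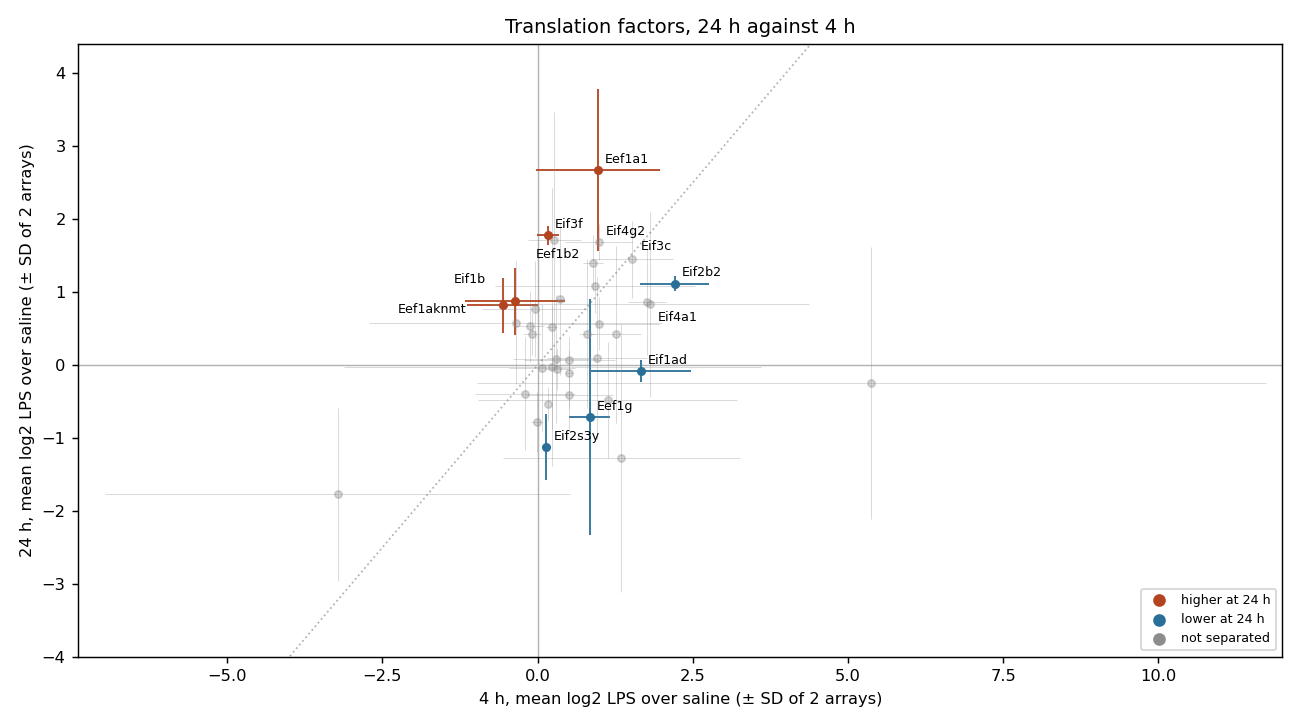
Mean log2 LPS over saline of each translation factor at 24 h (vertical axis) against 4 h (horizontal axis), with bars for the SD of 2 arrays. Colours mark the 4 factors higher and the 4 lower at 24 h; Eif2b2 and Eif3c lie above 1 at both times, and the point at 5.38 on the horizontal axis is Eif1ax.

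Start regions are shown for the 5 of the 6 factors called at 24 h with an entry in the RefSeq promoter table (build GRCm38.p6), because several elongation factor genes are known to begin their transcripts with a terminal oligopyrimidine (TOP) tract, through which mTOR controls their translation. Each runs from 80 bases before the annotated start through the first 20 transcribed bases, read along the gene's strand. Capitals mark a C followed by at least 4 bases that are each C or T, beginning within 5 bases of the start, and the E-box CACGTG. The windows are chr9:78481705-78481804 (minus strand) for Eef1a1, chr7:108934335-108934434 (plus) for Eif3f, chr12:85219401-85219500 (plus) for Eif2b2, chr1:63176751-63176850 (plus) for Eef1b2 and chr7:126566347-126566446 (minus) for Eif3c.
Eef1a1: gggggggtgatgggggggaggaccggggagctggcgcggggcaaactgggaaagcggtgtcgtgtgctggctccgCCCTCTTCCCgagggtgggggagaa
Eif3f: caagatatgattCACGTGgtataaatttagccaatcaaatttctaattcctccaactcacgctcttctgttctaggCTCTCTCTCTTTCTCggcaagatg
Eif2b2: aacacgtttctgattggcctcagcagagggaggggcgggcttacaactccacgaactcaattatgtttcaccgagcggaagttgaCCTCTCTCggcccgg
Eef1b2: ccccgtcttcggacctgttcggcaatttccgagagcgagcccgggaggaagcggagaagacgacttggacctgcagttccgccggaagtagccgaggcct
Eif3c: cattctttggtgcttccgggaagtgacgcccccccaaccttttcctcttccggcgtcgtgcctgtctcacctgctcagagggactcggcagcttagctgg

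A pyrimidine tract of this form was found in 3 of these 5 genes, with 10 bases in Eef1a1, 15 in Eif3f and 8 in Eif2b2, and not in Eef1b2 or Eif3c. Among the 29 factors with an entry, 7 (24.1%) held one, against 22.9% of the 8805 measured genes with an entry. The other 4 were Eif1ad, Eif2s3x, Eif2s3y and Eif4enif1, of which only Eif1ad was called, at 4 h. Annotated starts can lie away from the true one, by a distance not known here. A tract here is therefore a match of letters and was not shown to begin a transcript, in Eef1a1 or any other gene. The E-box CACGTG, which Myc and related factors bind, was searched on both strands over 300 bases (250 before and 50 after the start). It occurred in 9 of the 29 factors (31.0%), against 10.6% of measured genes with an entry. These were Eef1aknmt, Eef2k, Eif1b, Eif3a, Eif3f, Eif3k, Eif4a1, Eif4e and Eif5a, so 2 of the 9, Eif3f and Eif4a1, were among the called factors. Genes with several annotated starts have more windows in which to match. By window, the E-box occurred in 11 of 42 (26.2%) for the factors and in 7.15% of all windows. The latter include windows of genes not measured here, so the 2 backgrounds are unlike. By gene, 8.09% of all genes with an entry held the E-box, fewer than the 10.6% of measured ones.

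The rest of the translation machinery was described with 6 lists. Of all genes, 3.48% were called higher and 3.52% lower at 24 h, and 2.25% and 0.997% at 4 h. At such shares a list this short may well hold no call, so a lack of calls is not a result about its genes. Of 13 measured genes of the eIF2 kinase and integrated stress response list, 0 were called at either time, and the list's median stood at 0.08 at 24 h and 0.16 at 4 h. In the list of mTOR and MAP kinase control, 1 of 16 was called at 24 h, the mTOR complex subunit Mlst8, lower at -1.05 and -1.14, against -0.99 and -0.52 at 4 h. Its median was -0.22 at 24 h and 0.18 at 4 h. Among 12 poly(A)-binding proteins and release factors, Paip2, an inhibitor of poly(A)-binding protein, was called higher at 24 h, at 1.499 and 1.36, against -0.30 and -0.81 at 4 h. Gle1, which acts in messenger export, was at -2.67 and 0.58 at 24 h, against -1.12 and -1.81 at 4 h, where it was called lower. The median of this list was -0.02 at 24 h and 0.13 at 4 h.

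The cytosolic aminoacyl-tRNA synthetases, which charge tRNAs with amino acids, had the median closest to that of the factors. The 14 measured members, Eef1e1 among them, had a median of 0.42 at 24 h and 0.50 at 4 h, with 0 called at either time. Of 4 mitochondrial translation factors 0 were called, and the median was -0.62 at 24 h and -0.15 at 4 h. Of the list of enzymes that modify factors, the 5 measured genes (Dph1, Dph2, Dph5, Dph6 and Dnajc24) all act in making diphthamide, a modified histidine of eEF2. They had 0 calls and a median of -0.18 at 24 h and 0.11 at 4 h.

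**Figure D5:**
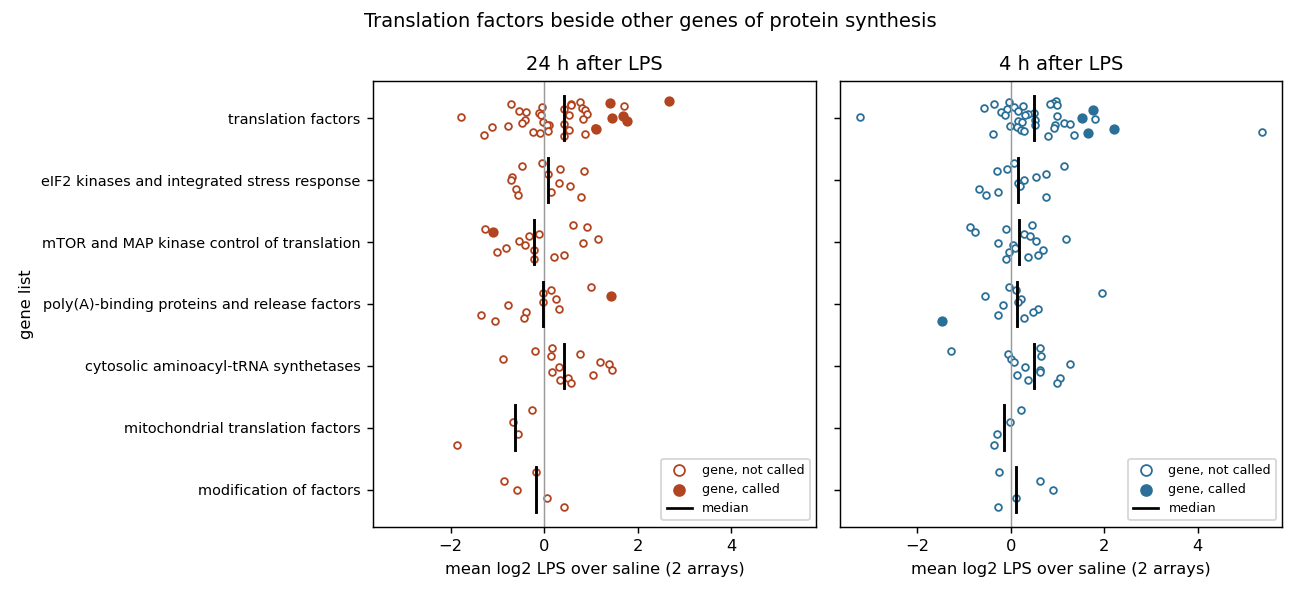
Mean log2 LPS over saline of each gene in the translation factors and 6 other lists of protein synthesis, at 24 h (left) and 4 h (right). Filled points are called genes and black bars medians; the factors and the aminoacyl-tRNA synthetases have medians between 0.42 and 0.50 at both times.

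Markers of cell types could be followed only as ratios, so the makeup of the isolate could not be checked, and more cells of a type cannot be told apart from more RNA per cell. The shares of all genes called were 3.48% higher and 3.52% lower at 24 h, and 2.25% and 0.997% at 4 h. Endothelial markers were called higher for 4 of 16 genes at 24 h and lower for 0 (Kdr, Eng, Cd36 and Gpihbp1; median 0.49, range -0.77 to 4.06). At 4 h Cldn5 was higher and 2, Kdr and Eng, were lower (median -0.01, range -1.89 to 1.29). Leukocyte markers were called higher for 3 of 14 and lower for 1 at 24 h (S100a8, S100a9 and Coro1a higher, Ngp lower; median -0.05, range -1.62 to 2.73), and 0 of 14 were called at 4 h (median -0.15). Of 17 cardiomyocyte markers 1, Ryr2, was lower at 24 h and 0 were called at 4 h. Of 11 fibroblast and mural cell markers 0 were called at either time, and of 6 erythrocyte markers Klf1 was higher and Car1 lower at 24 h and 0 were called at 4 h. The part of these cells in the ratios of the translation factors was not tested.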

How the data were processed

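The authors deposited 1 table of log2 ratios for 32448 spots on each of 4 arrays. Its scale was read from the values, and its direction, background correction, dye normalization and filters are not stated in any source used. The 39 genes and all lists were chosen with earlier results of these data known. The platform's annotation gave 1 symbol for 24344 spots and several for 98, and did not list 8006. All 39 factors matched the RefSeq table of GRCm38.p6 by gene identifier, with 0 symbols changed.

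Ratios of arrays with LPS in Cy3 were multiplied by -1. The 2 adjacent spots of an oligonucleotide were averaged, as were different oligonucleotides for 1 gene (4 factors), and the median of 11138 genes was subtracted from each array. As 2 arrays of a time count as 1 replicate, no test was the main result. limma 3.58.1 (R 4.3.3, Benjamini-Hochberg adjustment over all genes, arrays as separate samples) was an alternative, and the code of both was tested on simulated data with known shifts, which says nothing of how often the rule calls a gene by chance. Array number limits the precision. Named were all called genes, those that differed between times, and preset factors. Of the preset factors, Eef2, Eif2s1, Eif4g1 and Eif5 were not analysed here.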

Additional observations from a re-analysis of the deposited data

Results flagged for a closer look

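Of the 39 translation factors, 4 (10.3%) had both arrays on one side of 0 at 24 h and both on the other side at 4 h, against 12.3% of all genes. Each time counts as 1 replicate, so the differences have no test over replicates. In limma with the arrays as separate samples the 4 genes had an adjusted p of 0.804 or 0.805. The mean at 24 h minus that at 4 h was 1.38 for the methyltransferase Eef1aknmt, -1.26 for the eIF2 gamma subunit Eif2s3y, -0.92 for Eif3e and -0.70 for the helicase Eif4a2. The 4 h values of Eif4a2 and Eif2s3y and 1 array at each time of Eif3e lay within 0.2 log2 units of 0, so a small shift would end the change of sign. The change of sign of Eif2s3y came from 1 of its 2 oligonucleotides, as the one with close duplicate spots averaged 0.18 at 24 h and 0.30 at 4 h. The spots of Eif3e on array 2 at 24 h were at -1.87 and 0.48. The spots of Eef1aknmt on array 1 at 4 h were at -4.34 and 2.39.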

How the results depend on the processing

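Of the 6 factors called at 24 h, 3 (Eef1a1, Eif3f and Eif4g2) were called with scale normalization, and 3 where every spot had to be 2-fold. Without turning the sign of array 2, 1 other factor was called at 24 h, where 1.71% of all genes were called higher and 1.98% lower. At 4 h 2 factors were called, where 0.781% of all genes were called higher and 0.637% lower. The medians were then 0.069 at 24 h and 0.11 at 4 h, and the called values of Eef1b2 (-0.27), Eif3f (-0.093) and Eif4g2 (-0.17) at 24 h and of Eif1ad (-0.57) at 4 h changed sign, as that setting subtracts the arrays. A 1.5-fold threshold called 10 factors (25.6%) at 4 h, against 8.45% of all genes, and gave 15 (38.5%) between the times, against 29.97%. On single arrays 15 to 17 factors passed 2-fold at 24 h, 11 to 16 at 4 h, and 18 to 19 between the times. The shares of factors were 38.5% to 43.6%, 28.2% to 41.0% and 46.2% to 48.7%, against 29.1% to 30.6%, 12.7% to 20.8% and 34.8% to 38.3% of all genes. Single arrays gave medians of 0.23 to 0.43 at 24 h and 0.29 to 0.45 at 4 h. limma called 0 at each time and 0 between the times (7, 4 and 2 at an unadjusted p under 0.05). The median at 4 h was 0.37 when all spots of a gene were summarised by their median, and 0.64 over the 10 factors with close duplicate spots, of which 2 differed between the times. Without turning, 4 factors differed. For both of these counts the share of all genes that differed was not computed, so they are not results about the factors. Other alternatives kept each count within 1.5 times and each median within the spread of the arrays, but not always the same genes. Counts were compared without regard to how many factors were left. Of the 10 with close duplicate spots, 4 were called higher at 24 h, against 6.42% of all genes in that setting. At 4 h 3 were called higher, against 3.48%. Of the same 10, 2 differed between the times, where 20.5% of all 39 factors did. With ratios of exactly 1 left out, Eif1ax was called at 4 h and Eif1ad had no value. Scale normalization, which sets the arrays to 1 spread, lowered the means of the 6 factors called at 24 h and raised those of the 4 called at 4 h. Eef1a1 at 24 h went from 2.67 to 2.09 and Eif2b2 at 4 h from 2.21 to 2.78. No paired analysis was possible because the result comes from no test and the labels number no replicates. The 2 arrays per time and duplicate spots that disagreed limit what can be seen.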
